A study of Mus musculus with 19 samples.

Results

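The dual-specificity MAP kinase phosphatases (MKPs) described here are the 9 genes *Dusp1*, *Dusp2*, *Dusp4*, *Dusp5*, *Dusp6*, *Dusp7*, *Dusp8*, *Dusp10* and *Dusp16*. They were chosen by name from the phosphatases with a MAP kinase binding domain, of which *Dusp9* is a further one that was not chosen, and their symbols were matched to the Ensembl gene IDs of the count table with GENCODE. All 9 were found among the 56980 genes of the table, and all 9 were among the 18739 genes that passed the low-count filter. Their levels were measured by RNA-sequencing of CD11b+ brain cells, isolated with magnetic beads from 19 male mice aged 3 to 4 months. CD11b is an integrin alpha chain carried by microglia and by blood-derived myeloid cells. The isolation took the whole brain without the olfactory bulb and cerebellum. The 4 groups were wildtype mice given PBS (n = 4), wildtype mice given LPS (n = 5), *PARK7*/DJ-1 KO mice given PBS (n = 5) and *PARK7*/DJ-1 KO mice given LPS (n = 5). LPS, a bacterial cell wall component that activates Toll-like receptor 4, was given intraperitoneally at 4 μg/g body weight, and cells were taken 6 h after LPS or PBS. The KO mice carried a gene-trap allele of *Park7* in every cell, were backcrossed to C57BL/6NCrl, and were littermates of the wildtype mice.

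MAP kinases are switched on when a threonine and a tyrosine of their activation loop are phosphorylated, and MKPs remove both phosphates. The family falls into 3 classes by location and substrate. DUSP1, DUSP2, DUSP4 and DUSP5 are nuclear and are typically encoded by inducible genes, DUSP6 and DUSP7 are cytoplasmic and prefer ERK, and DUSP8, DUSP10 and DUSP16 prefer JNK and p38. In macrophages and microglia, Toll-like receptor signalling activates ERK, JNK and p38, and *Dusp1* is known as a feedback gene that limits p38 activity and cytokine production.

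Total counts per library ranged from 11936364 to 22788884, so that 3 counts corresponded to 0.139 to 0.256 CPM (counts scaled to the library total), a limit that covers counting error only. Member counts ranged from 38 for *Dusp4* to 31703 for *Dusp1* in a single library, all above that limit. *Park7* had 262 to 533 counts in the wildtype libraries and 9 to 90 counts in the KO libraries, so no library went against its genotype label. The cells are labelled primary microglia, and 9 of 10 tested microglial markers fell after LPS in each genotype. The summed microglial marker level had a median of 31034 CPM in wildtype mice given PBS and 13972 CPM after LPS. All 8 monocyte markers rose in each genotype, from 44.4 to 62.3 CPM summed in wildtype mice given PBS to 364 to 652 CPM after LPS, and none of the 8 was at 0 in any library. In bulk RNA, fewer cells of a type and less RNA per cell cannot be told apart, and the part of these shifts in the results below was not tested.

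After LPS, 4 of the 9 members rose, 1 fell and 4 were not called, in wildtype and in KO mice alike. *Dusp2*, *Dusp5*, *Dusp16* and *Dusp1* were the members that rose in each genotype, and *Dusp7* was the member that fell. *Dusp4*, *Dusp6*, *Dusp8* and *Dusp10* did not pass the thresholds. No member was called between KO and wildtype mice, either after PBS or after LPS, comparisons in which few of all genes tested passed (the shares are given with those comparisons). A gene was called after LPS if its adjusted p-value (edgeR's quasi-likelihood test, Benjamini-Hochberg over all 18739 genes) was under 0.05 and its log2FC had a size of at least 0.5.

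These counts have to be read against a broad response. At the same thresholds, 18.4% of all genes tested rose and 17.4% fell in wildtype mice, and 20.1% rose and 19% fell in KO mice. The CPM ranges of the LPS and PBS groups did not overlap for 5 of the 9 members in each genotype, beside 37.8% of all genes tested in wildtype and 32.8% in KO mice. The 9 members had a median log2FC of 0.43 in wildtype mice, beside -0.06 over all genes tested, and a median size of log2FC of 1.25 beside 0.54. In KO mice the median log2FC was 0.50 for the members and -0.01 for all genes.

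The sequence upstream of the transcription start is shown for the 5 members that changed and for *Dusp8*, which was not called after LPS and is set beside them for the motifs it holds. Each is the 250 bases before the start in RefSeq on GRCm38.p6, written along the gene's own strand, and a RefSeq promoter was matched by symbol for 8 of the 9 members (not for *Dusp4*). Capitals mark matches on either strand to 1 of 4 motifs, the cAMP response element (CRE, TGACGTCA), the AP-1 site (TGANTCA), the CArG box that binds serum response factor, and a loose pattern for an NF-kappaB site. The intervals are chr17:26508473-26508722 on the minus strand for *Dusp1*, chr2:127335909-127336158 on the plus strand for *Dusp2*, chr19:53528895-53529144 on the plus strand for *Dusp5*, chr6:134792629-134792878 on the minus strand for *Dusp16*, chr9:106368382-106368631 on the plus strand for *Dusp7* and chr7:142095285-142095534 on the minus strand for *Dusp8*.
Dusp1: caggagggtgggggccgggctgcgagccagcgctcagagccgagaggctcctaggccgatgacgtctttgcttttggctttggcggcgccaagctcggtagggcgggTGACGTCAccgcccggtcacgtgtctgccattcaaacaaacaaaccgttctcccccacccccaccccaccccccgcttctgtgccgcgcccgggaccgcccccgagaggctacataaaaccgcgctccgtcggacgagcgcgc
Dusp2: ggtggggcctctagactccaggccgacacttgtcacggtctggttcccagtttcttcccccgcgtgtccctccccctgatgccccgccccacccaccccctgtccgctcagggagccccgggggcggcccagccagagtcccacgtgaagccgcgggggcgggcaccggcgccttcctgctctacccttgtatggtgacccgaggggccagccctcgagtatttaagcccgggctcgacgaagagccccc
Dusp5: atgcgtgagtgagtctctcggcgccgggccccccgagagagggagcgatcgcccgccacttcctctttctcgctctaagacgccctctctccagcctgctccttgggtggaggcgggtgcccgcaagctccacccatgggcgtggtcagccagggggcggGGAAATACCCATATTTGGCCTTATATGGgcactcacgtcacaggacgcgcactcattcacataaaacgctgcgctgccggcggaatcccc
Dusp16: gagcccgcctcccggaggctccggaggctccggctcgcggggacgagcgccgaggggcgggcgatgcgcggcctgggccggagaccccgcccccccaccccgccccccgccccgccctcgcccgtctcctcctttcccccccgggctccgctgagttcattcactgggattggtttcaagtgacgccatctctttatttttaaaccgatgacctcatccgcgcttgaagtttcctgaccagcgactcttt
Dusp7: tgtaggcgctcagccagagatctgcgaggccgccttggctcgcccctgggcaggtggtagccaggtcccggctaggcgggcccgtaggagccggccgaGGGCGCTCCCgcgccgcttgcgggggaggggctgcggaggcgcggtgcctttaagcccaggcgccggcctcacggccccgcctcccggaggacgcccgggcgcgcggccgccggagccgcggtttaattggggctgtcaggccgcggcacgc
Dusp8: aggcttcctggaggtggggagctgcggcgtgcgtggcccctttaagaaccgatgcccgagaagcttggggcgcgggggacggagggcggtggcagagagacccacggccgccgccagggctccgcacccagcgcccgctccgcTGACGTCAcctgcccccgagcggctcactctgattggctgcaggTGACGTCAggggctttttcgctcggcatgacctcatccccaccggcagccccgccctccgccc

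*Dusp1* held 1 CRE, 143 to 136 bases before the start, and *Dusp8* held 2, with first bases at -107 and -63. A CRE was found in 1.55% of all 32851 promoters of this length and in 2.35% of the promoters of genes tested. *Dusp5* held 2 CArG boxes side by side, from -82 to -73 and from -72 to -63, a motif present in 1.47% of all promoters and 1.17% of those of genes tested. A match to the NF-kappaB pattern on the other strand, from -90 to -81, overlapped the first of the *Dusp5* CArG boxes. *Dusp7* held 1 match to the NF-kappaB pattern, from -152 to -143. This pattern is loose, since 16.8% of all promoters and 20.3% of those of genes tested matched it, so a match need not be a binding site. None of the 4 motifs was in the windows of *Dusp2* or *Dusp16*, nor in those of *Dusp6* and *Dusp10*. None of the 8 windows held an AP-1 site, which 6.75% of all promoters and 4.74% of those of genes tested did. The members that rose thus shared none of these motifs, and members with and without a CRE were among those that rose and among those that were not called. The 8 windows had a GC content of 56.4% to 77.2%, above the median of 52.4% over all promoters. These matches describe the letters in the windows only.

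Of the nuclear class, *Dusp2* (chromosome 2, 127177957 to 127180296 on GRCm39) had the largest log2FC of the 9 members. This phosphatase, also called PAC-1, was first described in activated lymphocytes and acts in the nucleus. Its levels were 15.6, 10.1, 11.8 and 10.1 CPM in the wildtype mice given PBS and 127, 90.1, 133, 262 and 250 CPM in those given LPS. In KO mice, *Dusp2* was at 9.02, 5.87, 17.1, 12.4 and 14.5 CPM after PBS and at 79.4, 168, 264, 142 and 279 CPM after LPS. Every LPS library was above every PBS library, and the spread among the LPS mice was wide, with a ratio of SD to mean of 45.5% in wildtype and 45.0% in KO mice. The fitted log2FC of *Dusp2* was 3.86 (SE 0.425, adjusted p = 7.03e-07) in wildtype, a 14.5-fold difference, and 3.98 (SE 0.389, adjusted p = 1.2e-07) in KO mice, a 15.8-fold difference. Only 1.48% of all genes tested had a larger change in wildtype mice in either direction.

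*Dusp1* (chromosome 17, 26724564 to 26781102), which encodes MKP-1, was the most abundant member after LPS on a per-length scale. It was at 391, 408, 396 and 462 CPM in wildtype mice after PBS and at 1285, 954, 1451, 1499 and 1454 CPM after LPS. In KO mice it was at 319, 234, 409, 412 and 424 CPM after PBS and at 752, 1131, 1364, 1345 and 2288 CPM after LPS. The PBS and LPS groups did not overlap in either genotype, although the KO mice given LPS were spread more widely than the wildtype mice. *Dusp1* rose 3.21-fold in wildtype (log2FC 1.68, SE 0.252, adjusted p = 2.42e-05) and 3.83-fold in KO mice (log2FC 1.94, SE 0.235, adjusted p = 1.7e-06). Without the KO LPS mouse with 2288 CPM, replicate 5, the log2FC in KO mice was 1.68.

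*Dusp5* (chromosome 19, 53517532 to 53530862) encodes a nuclear phosphatase that is selective for ERK. In wildtype mice it was at 4.69, 4.61, 6.50 and 7.02 CPM after PBS and at 23.6, 21.7, 27.8, 36.4 and 39.9 CPM after LPS. The KO mice had 7.37, 4.48, 8.94, 7.33 and 10.4 CPM after PBS and 15.3, 25.0, 44.3, 23.6 and 60.6 CPM after LPS. The groups were again separate, and the lowest KO LPS value was closer to the PBS range than in wildtype mice. The log2FC of *Dusp5* was 2.39 (SE 0.355, adjusted p = 2.14e-05) in wildtype and 2.13 (SE 0.321, adjusted p = 2.05e-05) in KO mice.

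*Dusp4* (chromosome 8, 35274442 to 35287048), the fourth nuclear member, stayed low. It ranged from 3.09 to 4.84 CPM in wildtype mice given PBS and from 4.16 to 7.50 CPM after LPS, and the 2 groups overlapped. In KO mice the range was 1.99 to 5.44 CPM after PBS and 2.27 to 11.4 CPM after LPS. The log2FC was 0.43 in each genotype, with a 95% interval of -0.34 to 1.20 in wildtype and -0.29 to 1.16 in KO mice. The value in KO mice rested on the mouse with 11.4 CPM, since it was 0.01 without that library, and this was the same KO LPS replicate 5 that had the highest *Dusp1* level.

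**Figure D1:**
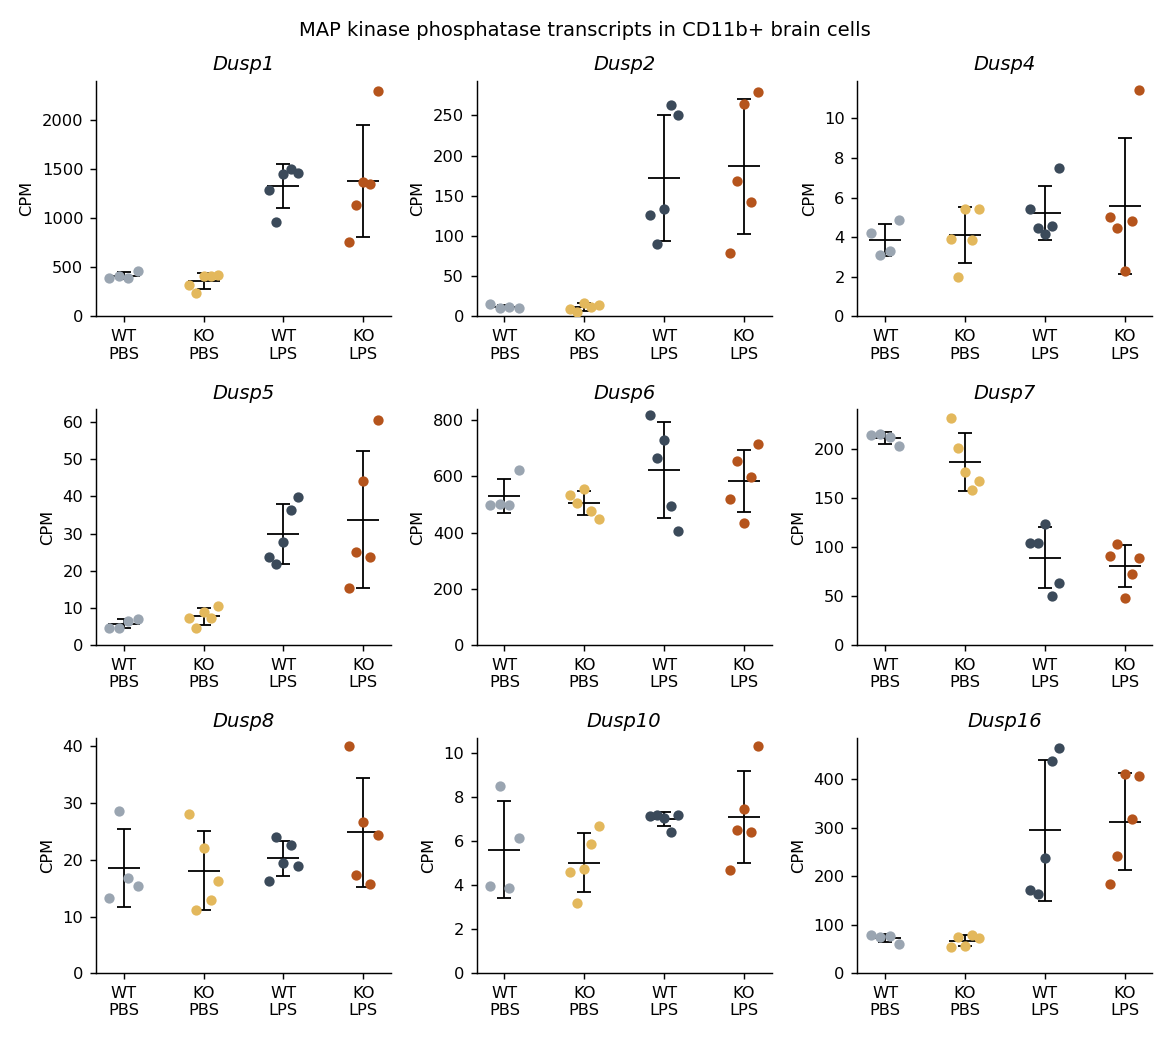
CPM of each of the 9 members (vertical axes, linear from 0) in the 4 groups, with 1 point per mouse and the mean and SD as a bar with whiskers. *Dusp1*, *Dusp2*, *Dusp5* and *Dusp16* were higher and *Dusp7* lower after LPS with no overlap in either genotype, while the groups overlapped for *Dusp4*, *Dusp6*, *Dusp8* and *Dusp10*.

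The 2 cytoplasmic, ERK-selective members parted after LPS. *Dusp7* (chromosome 9, 106245143 to 106252923) was at 214, 215, 212 and 202 CPM in wildtype mice given PBS, a ratio of SD to mean of 2.76%. After LPS it was at 103, 104, 124, 49.5 and 62.8 CPM. In KO mice it was at 231, 201, 176, 158 and 167 CPM after PBS and at 90.7, 103, 48.0, 72.5 and 88.6 CPM after LPS. Every LPS value lay below every PBS value, in wildtype and in KO mice. The log2FC of *Dusp7* was -1.25 (SE 0.230, adjusted p = 0.000205) in wildtype, 2.38-fold lower, and -1.21 (SE 0.220, adjusted p = 0.000156) in KO mice, 2.31-fold lower.

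*Dusp6* (chromosome 10, 99086564 to 99103361) encodes MKP-3, a feedback inhibitor of ERK. It was at 500, 503, 499 and 621 CPM in wildtype mice given PBS and at 818, 666, 730, 496 and 405 CPM after LPS, so that the LPS values lay both above and below the PBS range. In KO mice it was at 533, 504, 557, 478 and 449 CPM after PBS and at 519, 655, 436, 600 and 716 CPM after LPS. The log2FC was 0.23 (95% interval -0.14 to 0.61, adjusted p = 0.334) in wildtype and 0.21 (-0.14 to 0.57, adjusted p = 0.325) in KO mice. These intervals did not reach 1, a doubling, in either direction. With 1 library left out, the log2FC of *Dusp6* ran from 0.11 to 0.35 in wildtype and from 0.13 to 0.30 in KO mice.

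Of the JNK- and p38-selective class, *Dusp16* (chromosome 6, 134692431 to 134784241) was the member that changed. It encodes MKP-7, which acts on JNK and p38. It was at 79.2, 76.0, 76.7 and 60.9 CPM in wildtype mice given PBS and at 172, 163, 238, 438 and 465 CPM after LPS. In KO mice, *Dusp16* was at 54.5, 75.2, 55.9, 79.3 and 72.7 CPM after PBS and at 184, 243, 412, 319 and 406 CPM after LPS. The groups did not overlap, and the wildtype LPS mice fell apart into 3 with 163 to 238 CPM and 2 with 438 and 465 CPM. The log2FC of *Dusp16* was 2.01 (SE 0.310, adjusted p = 3.28e-05) in wildtype and 2.21 (SE 0.288, adjusted p = 3.88e-06) in KO mice.

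*Dusp8* (chromosome 7, 141633226 to 141649580), a member known from brain and heart, was at 13.3, 28.5, 16.9 and 15.4 CPM in wildtype mice given PBS and at 16.2, 24.1, 19.5, 22.7 and 18.8 CPM after LPS. In KO mice it was at 28.1, 11.1, 22.2, 12.9 and 16.2 CPM after PBS and at 40.0, 17.3, 26.7, 15.7 and 24.4 CPM after LPS. The groups overlapped in each genotype. The log2FC was 0.13 (95% interval -0.49 to 0.75, adjusted p = 0.771) in wildtype and 0.46 (-0.13 to 1.04, adjusted p = 0.197) in KO mice. Both values depended on single libraries. In wildtype mice the log2FC was 0.43 without PBS replicate 2 and close to 0 without PBS replicate 1, and in KO mice it was 0.23 without LPS replicate 1 and 0.67 without PBS replicate 1, and it was not called in any of these fits. In each of the 4 groups, 1 library had the highest *Dusp8* level, and these were wildtype PBS replicate 2, wildtype LPS replicate 2, KO PBS replicate 1 and KO LPS replicate 1.

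*Dusp10* (chromosome 1, 183745499 to 183807842), which encodes MKP-5, had the lowest level per length in every group. It ranged from 3.88 to 8.49 CPM in wildtype mice given PBS and from 6.44 to 7.17 CPM after LPS. The range in KO mice was 3.19 to 6.70 CPM after PBS and 4.67 to 10.3 CPM after LPS, and the groups overlapped. The log2FC was 0.32 (95% interval -0.24 to 0.87, adjusted p = 0.372) in wildtype and 0.50 (-0.02 to 1.01, adjusted p = 0.112) in KO mice. In wildtype mice the log2FC was 0.60 without PBS replicate 2 and was not called (adjusted p = 0.0902, edgeR's quasi-likelihood test). In KO mice this result turned on 1 library, since without KO LPS replicate 1 the log2FC was 0.63 (adjusted p = 0.045, edgeR's quasi-likelihood test), which passes the threshold. *Dusp10* also shares 808 exonic bases with the antisense gene 1700056E22Rik, which had at most 32 counts in a library, and the strand setting of the authors' counting is not given in the sources used here. *Dusp6* and *Dusp5* likewise share 685 and 555 bases with antisense genes, which had at most 165 and 10 counts. *Dusp2* shares 615 bases with the antisense gene *Gm74572*, and reads from that gene were not analysed here.

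The comparison of KO with wildtype mice asks whether loss of DJ-1 alters these genes. After LPS, 0 of the 9 members passed an unadjusted p-value of 0.05 together with a log2FC of 0.5 in size, thresholds that 0.544% of all genes tested passed as higher and 0.763% as lower in KO. The smallest unadjusted p-value of a member in edgeR's quasi-likelihood test was 0.305, all adjusted p-values were 1, and the KO and wildtype values overlapped for each of the 9 genes, as they did for nearly all genes tested (0.219% did not overlap). The size of the log2FC ranged from 0.02 for *Dusp10* to 0.29 for *Dusp8*. Both depended on single libraries. With 1 library left out, the log2FC ran from -0.16 to 0.14 for *Dusp10* and from 0.06 to 0.42 for *Dusp8*. The 95% intervals of the 9 differences ran from -0.62 at the lowest to 0.88 at the highest on the log2 scale, so a doubling or halving lay outside all 9 of them. The narrowest was that of *Dusp6*, from -0.44 to 0.26. For *Dusp1* the interval was -0.43 to 0.53, for *Dusp2* it was -0.60 to 0.83, and for *Dusp7* it was -0.59 to 0.32.

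After PBS, 0 of the 9 members were called either, beside 0.224% of all genes that were higher and 0.576% that were lower in KO. The KO and wildtype ranges overlapped for all 9, and 0.971% of all genes tested did not overlap. The smallest unadjusted p-value was 0.214, for *Dusp5*, and all adjusted p-values were 1. *Dusp5* had a mean level of 7.71 ± 2.21 CPM in the 5 KO mice and of 5.70 ± 1.24 CPM in the 4 wildtype mice (mean ± SD), with a log2FC of 0.43 (95% interval -0.27 to 1.14), so that a doubling was not outside the interval. The log2FC of the other members ranged in size from 0.01 for *Dusp2* to 0.20 for *Dusp1*.

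The response to LPS itself was compared between the genotypes as an interaction in the same fit. The difference of the log2FC values (KO minus wildtype) was 0.25 (95% interval -0.44 to 0.95) for *Dusp1*, 0.13 (-0.94 to 1.20) for *Dusp2*, -0.26 (-1.21 to 0.69) for *Dusp5*, 0.04 (-0.62 to 0.70) for *Dusp7* and 0.20 (-0.64 to 1.04) for *Dusp16*. For *Dusp8* it was 0.33, a value that fell to 0.03 without wildtype PBS replicate 2 and to 0.08 without KO LPS replicate 1. That of *Dusp5* was -0.58 without KO LPS replicate 5 and -0.08 without KO LPS replicate 1, so the order of the members by this difference depended on single libraries. With 1 library left out, the difference ran from -0.007 to 0.40 for *Dusp1* and from -0.06 to 0.33 for *Dusp2*. It ran from -0.11 to 0.19 for *Dusp7* and from 0.04 to 0.43 for *Dusp16*. No member was called, and 0% of all genes passed an adjusted p-value of 0.05 in edgeR. DESeq2 also called 0 genes, and 180 genes had an unadjusted p-value under 0.05 in edgeR, none of them a member. The intervals of *Dusp2*, *Dusp4*, *Dusp5*, *Dusp8* and *Dusp16* reached beyond 1 in size, so that a doubling or halving of the response was not outside them.

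**Figure D2:**
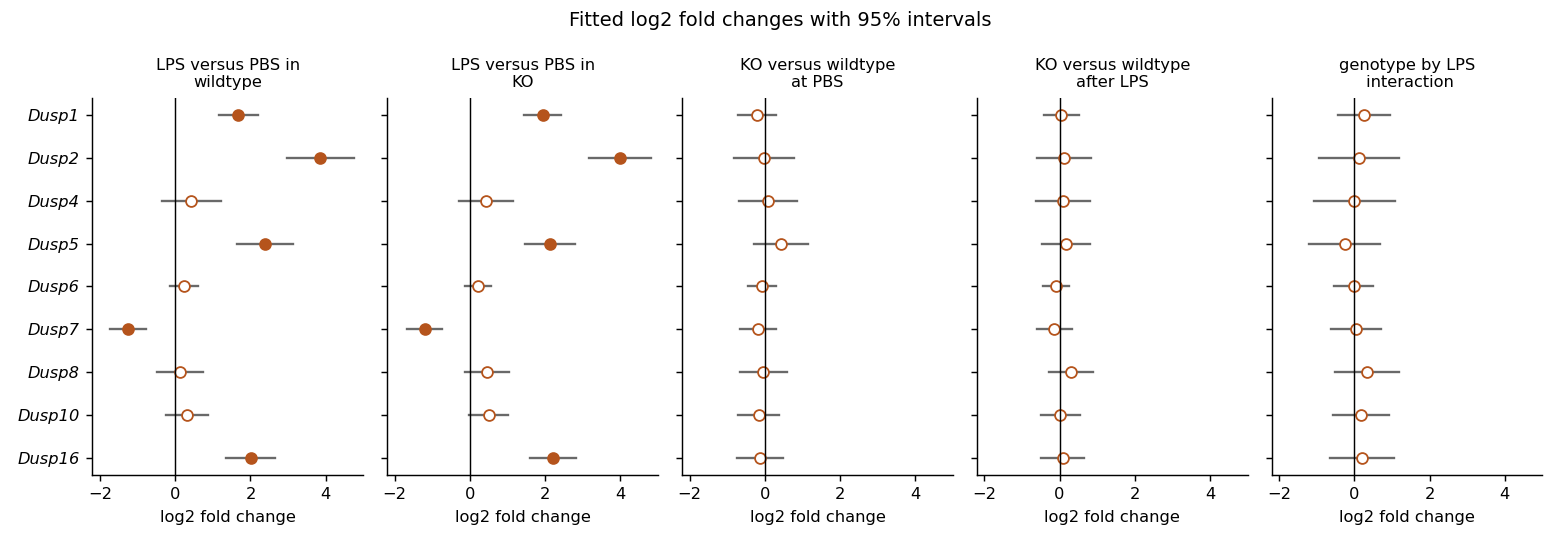
Log2 fold changes of the 9 members (points) with 95% intervals (lines) in the 4 comparisons and the interaction, from 1 fit of 19 libraries. Filled points passed the thresholds of their comparison, which 5 members did after LPS in each genotype and 0 did in KO versus wildtype or in the interaction.

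The make-up of the family changed with LPS. Levels were compared between genes as reads scaled to the library total and to exonic length (RPKM). In wildtype mice given PBS, *Dusp6* was first with 157 ± 17.8 RPKM (SD, n = 4), followed by *Dusp1* with 125 ± 9.80 and *Dusp7* with 51.5 ± 1.42 RPKM, and none of these 3 overlapped its neighbour in that order. *Dusp16* at 8.28 and *Dusp2* at 5.59 RPKM came next and overlapped each other. *Dusp5*, *Dusp8*, *Dusp4* and *Dusp10* were between 0.924 and 2.30 RPKM, and each overlapped the next. The order of the 9 means was the same in KO mice given PBS.

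After LPS, *Dusp1* was first with 400 ± 67.6 RPKM (SD, n = 5) in wildtype and 414 ± 170 RPKM (SD, n = 5) in KO mice, above the range of *Dusp6* in each genotype. *Dusp6*, *Dusp2*, *Dusp16*, *Dusp7* and *Dusp5* followed in that order in wildtype and in KO mice, and each overlapped the next. *Dusp2* moved from the fifth to the third place, and *Dusp7* from the third to the fifth. *Dusp8*, *Dusp4* and *Dusp10* kept the last 3 places.

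As a share of the summed RPKM of the 9 members, *Dusp6* took 44.2% ± 1.80 (SD, n = 4) in wildtype mice given PBS and 25.4% ± 8.15 (SD, n = 5) after LPS. *Dusp1* took 35.2% ± 0.418 after PBS and 54.0% ± 3.37 after LPS. The share of *Dusp7* was 14.6% and then 3.01%, and that of *Dusp2* 1.60% and then 10.8%. The ranges of these 4 shares did not overlap between PBS and LPS. The KO mice had shares close to those of wildtype mice after LPS, with 24.3% for *Dusp6*, 54.1% for *Dusp1*, 2.87% for *Dusp7* and 11.4% for *Dusp2*. The summed level was 353 ± 25.0 RPKM (SD, n = 4) after PBS and 737 ± 88.1 RPKM (SD, n = 5) after LPS in wildtype mice, and 323 ± 25.1 and 749 ± 239 RPKM (SD, n = 5 each) in KO mice.

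**Figure D3:**
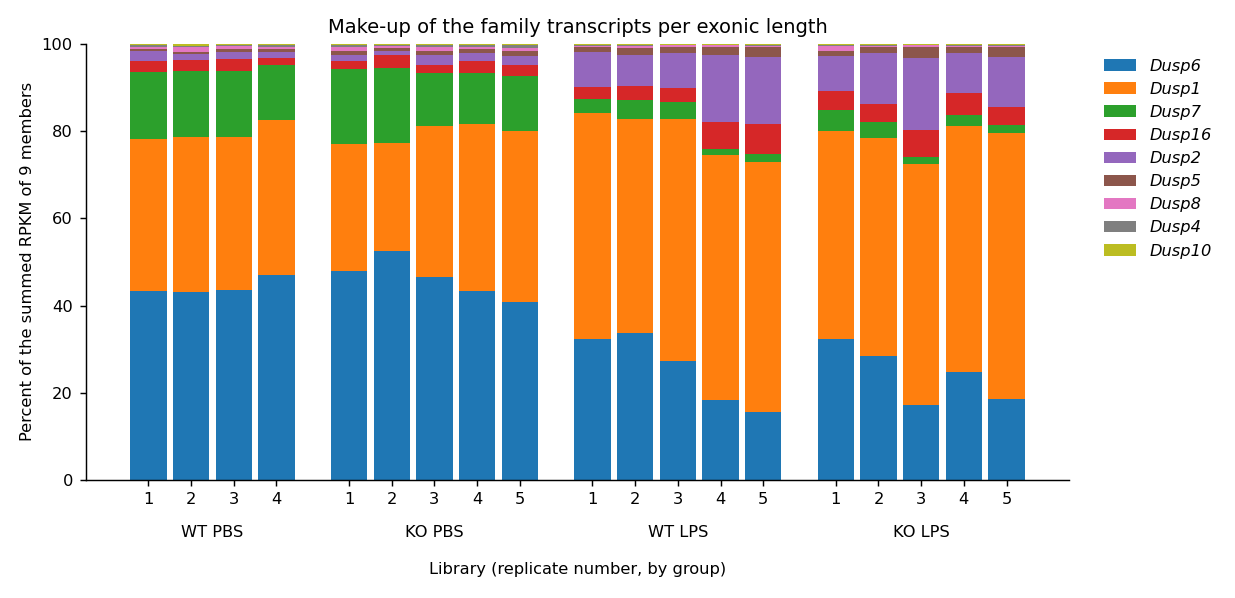
Share of each member in the summed RPKM of the 9 members (vertical axis, percent), with 1 stacked bar per library, grouped by genotype and treatment and numbered by replicate. *Dusp6* was the largest part in every PBS library and *Dusp1* in every LPS library.

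Members also varied together among mice of the same group. For this, the deviation of each member's log2 CPM from its group mean was taken in the 19 libraries, and each of the 36 pairs of members was compared by Pearson's r and Spearman's rho with a permutation test (100000 permutations within groups, two-sided). *Dusp1* and *Dusp5* had r = 0.879 and rho = 0.777, with permutation p-values of 2e-05 and 0.0004 and adjusted values of 0.00072 and 0.0072 over the 36 pairs. *Dusp2* and *Dusp5* had r = 0.846 and rho = 0.846 (permutation p = 0.00015 and 0.00019, adjusted 0.0022 and 0.0068). For *Dusp1* and *Dusp2*, r was 0.806 and rho 0.726 (permutation p = 0.00018 and 0.0019, adjusted 0.0022 and 0.023). Without the 2 libraries farthest from the median on the second gene, r was 0.754, 0.790 and 0.663 for these 3 pairs. The 3 nuclear members that rose with LPS thus also varied together between mice of 1 group.

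In all, 5 of the 36 pairs had an adjusted p-value under 0.05 for Pearson's r, all of them positive. Correlation within groups was common among all genes: 3.81% of all pairs of the 18739 genes tested had an r of at least 0.688, the lowest of these 5, as did 6 of the 36 member pairs (16.7%). An r of at least 0.806, the lowest among *Dusp1*, *Dusp2* and *Dusp5*, was reached by 1.24% of all pairs. These shares are descriptions, since the pairs share genes and libraries. The other two were *Dusp1* with *Dusp10* (r = 0.688, rho = 0.619, permutation p = 0.0018 and 0.0097, adjusted 0.016 and 0.058) and *Dusp2* with *Dusp16* (r = 0.718, rho = 0.733, permutation p = 0.0054 and 0.0072, adjusted 0.039 and 0.058). Without the 2 farthest libraries, r was 0.736 and 0.578. Outside the threshold were *Dusp6* with *Dusp7* (r = 0.754, rho = 0.686, permutation p = 0.011 and 0.013, adjusted 0.069 and 0.064) and *Dusp7* with *Dusp16* (r = -0.733, rho = -0.737, permutation p = 0.020 and 0.0086, adjusted 0.080 and 0.058). For the latter, r was -0.735 without the 2 farthest libraries. In the wildtype LPS group, replicates 4 and 5 had the highest *Dusp2*, *Dusp5* and *Dusp16* and the lowest *Dusp6* and *Dusp7* levels of the 5 mice. In the KO LPS group, replicate 3 had the lowest *Dusp6* and *Dusp7* and the highest *Dusp16* level.

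**Figure D4:**
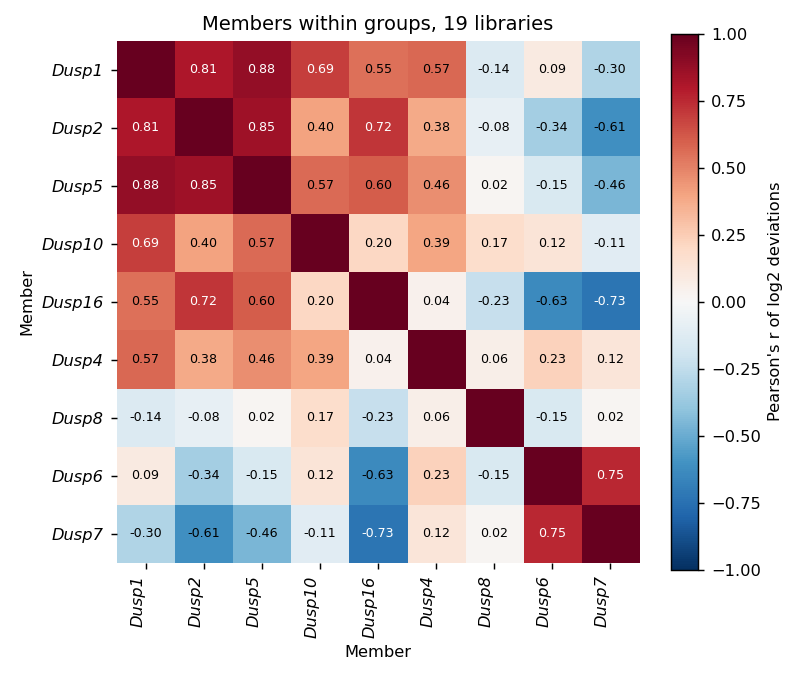
Pearson's r between members over 19 libraries (colour and printed value), from deviations of log2 CPM from the 4 group means. *Dusp1*, *Dusp2* and *Dusp5* were positively correlated with each other (0.81 to 0.88), and *Dusp7* was negatively correlated with *Dusp16* (-0.73).

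Each member was compared in the same way with the summed levels of 10 gene lists, 90 relations in all. The lists were markers of microglia, of other brain and blood cell types, and immediate early genes known to be induced by tissue dissociation. For 1 of them the adjusted p-value of Pearson's r was under 0.05, that of *Dusp8* with the oligodendrocyte list (r = 0.770, rho = 0.740, permutation p = 0.00051 and 0.0014, adjusted 0.046 and 0.067). Without the 2 libraries farthest from the median of the list, r was 0.639. The summed level of the 8 oligodendrocyte markers was 10053 CPM in wildtype PBS replicate 2, 6976 CPM in wildtype LPS replicate 2, 7628 CPM in KO PBS replicate 1 and 11448 CPM in KO LPS replicate 1, the highest of each group, and these were the libraries with the highest *Dusp8* levels. The list ranged from 567 to 4077 CPM in the other 15 libraries, and no oligodendrocyte marker was at 0 in any library. With the summed level of oligodendrocyte, astrocyte, neuron and endothelial markers as a covariate, the log2FC of *Dusp8* after LPS was 0.20 (SE 0.198) in wildtype and 0.41 (SE 0.185) in KO mice, and it was not called (adjusted p = 0.441 and 0.0746, edgeR's quasi-likelihood test).

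A further 4 relations had adjusted p-values of 0.053 to 0.062 for Pearson's r. *Dusp16* had r = 0.688 and rho = 0.742 with the monocyte list (permutation p = 0.0018 and 0.0024, adjusted 0.055 and 0.072), and *Dusp7* had r = -0.706 and rho = -0.758 (permutation p = 0.0012 and 0.0015, adjusted 0.053 and 0.067). Without the 2 farthest libraries, r was 0.696 and -0.619. The monocyte list was highest in wildtype LPS replicates 4 and 5 (652 and 621 CPM) and, among KO mice, in LPS replicate 3 (609 CPM), which are the libraries named above for high *Dusp16* and low *Dusp7*. Other libraries did not follow this. KO LPS replicate 5 had *Dusp16* at 406 CPM, close to the 412 CPM of replicate 3, with a monocyte sum of 309 CPM. Wildtype LPS replicate 1 had a monocyte sum of 493 CPM with *Dusp16* at 172 CPM. *Dusp16* also had r = 0.602 and rho = 0.665 with the list of 10 neutrophil markers (permutation p = 0.0034 and 0.0060, adjusted 0.062 and 0.13), and r was 0.652 without KO PBS replicates 3 and 4. The neutrophil list summed to 53.3 to 102 CPM in wildtype mice given PBS and 161 to 456 CPM after LPS, and to 21.0 to 200 and 101 to 448 CPM in KO mice, and none of the 10 was at 0 in any library. Of these markers 4 rose with LPS in wildtype mice, and in KO mice 5 rose and 1 fell.

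*Dusp1* had r = 0.840 and rho = 0.560 with the 13 immediate early genes (permutation p = 0.0025 and 0.030, adjusted 0.056 and 0.27), and r was 0.589 without KO LPS replicates 1 and 5. That list was highest in KO LPS replicate 5 (15744 CPM) and rose with LPS for 6 of 13 genes in wildtype and 7 of 13 in KO mice.

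A further 12 of the 90 relations had an unadjusted permutation p-value under 0.05 but adjusted values of 0.17 to 0.24. The immediate early list was among them with *Dusp5* (r = 0.658), *Dusp4* (0.639), *Dusp2* (0.604) and *Dusp10* (0.504), values that were 0.241, 0.609, 0.371 and 0.134 without KO LPS replicates 1 and 5. *Dusp1* had negative values with the astrocyte (-0.616), endothelial (-0.605), neuron (-0.588) and oligodendrocyte (-0.495) lists. Without the 2 libraries farthest from the median of each list, these were -0.234, -0.455, -0.38 and -0.381. The others were *Dusp8* with the astrocyte (0.635) and neuron (0.564) lists, *Dusp4* with the astrocyte list (-0.586) and *Dusp7* with the microglia list (0.576). With the farthest libraries left out in the same way, these were 0.699, 0.753, -0.501 and 0.504. With the summed oligodendrocyte, astrocyte, neuron and endothelial markers as a covariate, the same 5 members were called after LPS in each genotype. The log2FC values in wildtype mice were 1.66 for *Dusp1*, 3.84 for *Dusp2*, 2.38 for *Dusp5*, 1.99 for *Dusp16* and -1.25 for *Dusp7*. In wildtype mice LPS changed 0 of 8 oligodendrocyte, 1 of 7 astrocyte, 1 of 7 neuron and 3 of 7 endothelial markers. A covariate that moves little with LPS can take up little of an LPS effect, so this fit does not test the part of cell make-up in these calls. The part of the monocyte, neutrophil, microglia and immediate early lists in the levels of the members was not tested, nor was the part of any list in the relations among *Dusp1*, *Dusp2* and *Dusp5*.

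**Figure D5:**
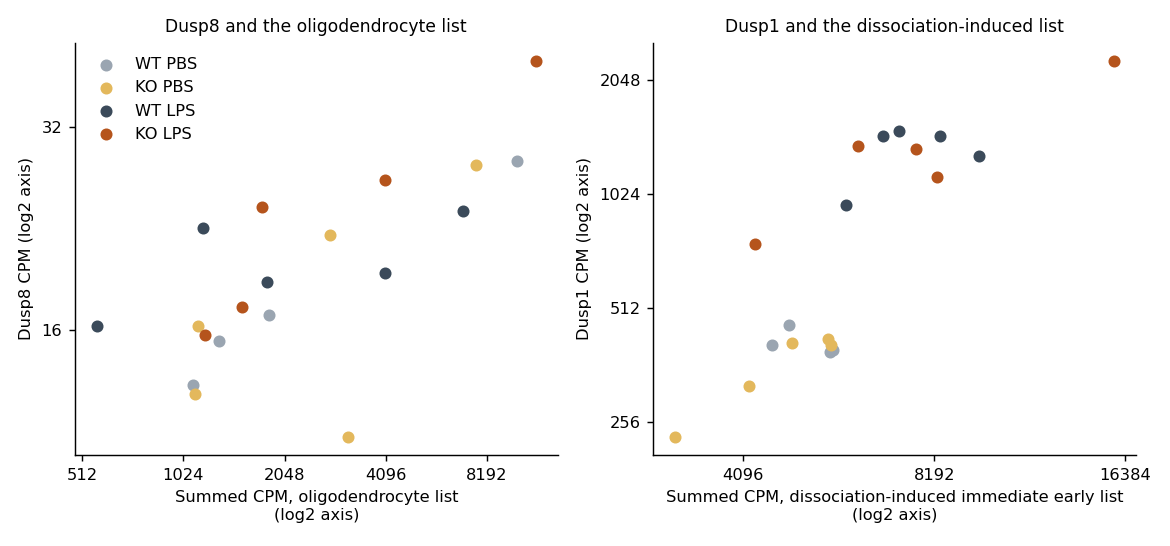
Left, *Dusp8* CPM against the summed CPM of 8 oligodendrocyte markers, and right, *Dusp1* CPM against the summed CPM of 13 immediate early genes, with 1 point per library, colours for the 4 groups and log2 axes. The 4 libraries with the highest oligodendrocyte sums (6976 to 11448 CPM) had the highest *Dusp8* level of their groups.

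The genes with the pattern most like each member's were taken from 11463 other genes with a mean of at least 5 CPM, by Pearson's r of log2 CPM over the 19 libraries. They are a description, since each is the highest of many, and levels that all move with LPS share that step. *Dusp2* was closest to *Map3k8* (r = 0.995), which encodes the kinase TPL2 that activates ERK downstream of Toll-like receptors, and to *Tnfaip3* (0.994), which encodes the NF-kappaB inhibitor A20. Both were also its closest genes by deviations within groups (0.937 and 0.921). *Dusp1* was closest to the long noncoding RNA gene *4833445I07Rik* (0.988) and to *Zc3h12a* (0.986), which encodes the RNase Regnase-1, and within groups to the same genes (0.932 and 0.919). *Dusp5* was closest to *Gpr132* (0.981) and *Kdm6b* (0.974), and within groups to *Klf10* (0.935) and *Prpf38a* (0.916). *Dusp16* was closest to *Pik3r6* and *Tbc1d1* over all libraries (0.991 and 0.989) and within groups (0.948 and 0.940).

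*Dusp7*, which fell, was closest to the microglial marker *Tmem119* (0.978) and to *Slc35c2* (0.978), and within groups to *Trim65* (0.932) and *Csk* (0.930). The members that were not called had lower values. *Dusp6* was closest to *Dtymk* (0.866) and *Elp3* (0.848), and within groups to *Otulinl* (0.858) and *Vgll4* (0.854). *Dusp8* was closest to *Nsmf* (0.851) and *Map2k7* (0.837), and within groups to *Nsmf* (0.885) and the neuronal immediate early gene *Arc* (0.849). *Dusp10* was closest to the clock gene *Per1* (0.836) and to *Gm36933* (0.836), and within groups to *Tamalin* (0.827) and then to the clock gene *Per2* (0.825). *Dusp4* was closest to the heat shock gene *Hspa1a* (0.854) and to *Zfp335* (0.849), and within groups to the same genes (0.860 and 0.848). For *Dusp4* and *Hspa1a* over all libraries, Spearman's rho was only 0.507.

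The MKPs act on a kinase cascade whose other genes were taken in 6 lists with 75 tested genes. In wildtype mice 11 of these rose and 11 fell with LPS, 14.7% each, beside 18.4% and 17.4% of all genes tested. In KO mice 13 rose (17.3%) and 11 fell (14.7%), beside 20.1% and 19% of all genes, so the cascade genes were called at shares near the background. Of the 13 MAP kinases, 3 rose and 3 fell in each genotype. *Mapk13* and *Mapk11*, which encode p38 isoforms, had log2FC values of 2.16 and 1.29 in wildtype mice (adjusted p = 0.00773 and 0.00748), and *Mapk12* and *Mapk14*, which encode the other two p38 isoforms, had -1.48 and -1.13 (adjusted p = 0.00175 and 0.000696). *Mapk13* was low, with 0.254 CPM after PBS and 1.16 CPM after LPS, while *Mapk14* fell from 239 to 109 CPM.

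Upstream, 1 of 7 MAP kinase kinases rose and 1 fell in wildtype mice. *Map2k3*, an activator of p38, had a log2FC of 1.25 (adjusted p = 2.66e-05) and *Map2k6*, which also encodes a p38 activator, -3.56 (adjusted p = 5.01e-09). Among 18 MAP3 kinases, 2 rose and 2 fell in each genotype. In wildtype mice the log2FC values were 2.96 for *Map3k8* (adjusted p = 1.3e-07) and 2.69 for *Map3k6* (adjusted p = 0.000106), and they were negative for *Map3k9* (-1.69, adjusted p = 7.31e-09) and *Map3k12* (-1.27, adjusted p = 0.00171). Of 11 MAPK-activated kinases, 2 rose and 3 fell in wildtype mice. *Mapkapk2*, the p38 target that stabilizes cytokine mRNA, had a log2FC of 2.66 (adjusted p = 4.42e-08) and *Rps6ka3* of 0.50 (adjusted p = 0.0324), while *Rps6ka5* had -1.89 (adjusted p = 3.84e-08) and *Rps6ka1* -0.69 (adjusted p = 0.0329).

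The other dual-specificity phosphatases are mostly atypical ones without a MAP kinase binding domain, and their list also held *Dusp9*, a cytoplasmic ERK-selective MKP. *Dusp9* did not pass the low-count filter, with 0 to 10 counts per library. Of 13 tested, 0 rose and 1 fell in each genotype, *Dusp22*, with a log2FC of -1.17 (adjusted p = 1.8e-06) in wildtype mice. Of 13 other ERK feedback inhibitors and MAPK tyrosine phosphatases, 3 rose and 1 fell in each genotype. In wildtype mice *Ptpn7*, a tyrosine phosphatase of MAP kinases, had a log2FC of 1.72 (adjusted p = 0.00362) and *Errfi1*, an inhibitor of EGF receptor signalling, of 1.18 (adjusted p = 1.7e-05, beside 0.78 in KO mice), while *Rasa1*, a RAS GTPase-activating protein, had -0.64 (adjusted p = 6.23e-05). In KO versus wildtype mice, 0 of the 75 genes were called after LPS and 1 after PBS (1.33%, beside 0.224% of all genes called higher). That gene was *Errfi1*, with a log2FC of 0.51 (SE 0.169) and an unadjusted p of 0.00695 in edgeR's quasi-likelihood test, and its adjusted p-value was 1.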

How the data were processed

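The authors depleted ribosomal RNA, made stranded libraries from total RNA, trimmed the reads with Cutadapt and mapped and counted them with STAR 2.7.9a (version per the submitters' processing notes) on GRCm39. The deposited values are their raw counts per gene in the Ensembl annotation, not normalized, and the strand setting of the counting is not given in the sources used here. No column belonged to another series.

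Differential expression was tested with edgeR 4.0.16 in R 4.3.3 (filterByExpr with a minimum count of 10 and a minimum total of 15, TMM, 1 quasi-likelihood fit of 19 libraries in 4 groups). Adjustment of p-values was by Benjamini-Hochberg over all genes tested, and the SE was the size of a log2FC divided by the square root of F. CPM used TMM library sizes, and RPKM used the union of exons in GENCODE M39, which also gave symbols, coordinates (GRCm39) and overlaps. Each library was taken as 1 mouse and counted as 1 replicate, since the study gives as many mice per group as there are libraries. No 2 libraries of a group were alike within sampling noise, which by itself does not show separate mice. Same-numbered mice were different animals, so the numbers were not used for pairing. Log2 CPM used a prior count of 2, and log2 of a marker sum used a pseudocount of 1. DESeq2 1.42.0 and the other alternatives are in the closing section. The scripts were tested on simulated data.

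The members and lists were chosen with earlier results of these data known. Every member is named, with up to 2 genes per direction and pathway list and the 2 closest patterns per member and measure. Promoter sequences were from RefSeq (GRCm38.p6).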

Additional observations from a re-analysis of the deposited data

Results flagged for a closer look

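In 2 of the 36 combinations of a member and a group, 1 library stood apart from the others by Dixon's test at the 95% level, where chance alone flags about 1 in 20. *Dusp6* was at 621 CPM in replicate 4 of the wildtype mice given PBS, above the other 3 libraries at 499 to 503 CPM. *Dusp10* was at 6.44 CPM in replicate 4 of the wildtype mice given LPS, below the other 4 libraries at 7.05 to 7.17 CPM. Neither gene was called after LPS, with or without that library.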

How the results depend on the processing

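The count of members called in each comparison stayed within 1.5 times its value under every alternative run: no low-count filter, at least 10 counts in every library, DESeq2's size factors in edgeR, DESeq2, only the groups compared, the replicate number as a block, ribosomal RNA and mitochondrial genes left out, other brain cell markers as a covariate, an adjusted p-value with no fold change minimum, and each library left out. *Dusp10* in KO mice was the 1 member whose call changed (log2FC 0.63, adjusted p = 0.045 without KO LPS replicate 1). In the replicate block fit, 4 members were higher and 1 lower after LPS in each genotype, and 0 were called in KO versus wildtype mice or the interaction. The deviations of same-numbered LPS and PBS libraries of one genotype were positively correlated in 8 of 9 pairs (-0.0418 to 0.576), and those of KO and wildtype libraries of one treatment in 3 of 9 (-0.573 to 0.3). In no comparison did every pair exceed 0.1 or every library correlate best with its own number (5 of 8 and 6 of 10 libraries for LPS in wildtype and KO mice), so the numbers were not used for pairing. This rule cannot exclude that same-numbered LPS and PBS libraries shared a batch, which was not tested. Among values that were not called, the sign changed in 22 of 171 for KO versus wildtype after LPS, 12 of 162 after PBS, 36 of 234 for the interaction and 1 of 72 for LPS in wildtype mice, and 0 of 76 for LPS in KO mice. Over all genes, KO versus wildtype calls depended on the setting: after LPS 102 were higher and 143 lower, with 347 and 507 without the filter, 42 and 69 at 10 counts in every library, 36 and 69 with only the groups compared, and 0 and 2 by adjusted p-value. After PBS 42 were higher and 108 lower, with 241 and 439, 6 and 52, 28 and 117, and 0 and 1 in the same order, 45 and 189 with the block and 56 and 174 with the covariate. Leaving out 1 library gave 100 to 204 higher and 105 to 270 lower after LPS, where the counts moved by over 1.5 times without KO LPS replicate 1 (204 higher) and replicate 5 (164 higher, 270 lower). After PBS it gave 30 to 94 higher and 67 to 153 lower, with such a move without wildtype PBS replicate 2 (94 higher) and replicate 4 (72 higher, 67 lower) and without KO PBS replicate 3 (67 lower).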
